A study of Mus musculus with 10 samples.

Results

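miR-199 and miR-214 are microRNAs (miRNAs, short RNAs of about 22 bases that repress messenger RNAs) best known from connective tissue cells. Their rows were taken by name from the deposited miRNA tables: 6 of 1139 mature mouse miRNAs, namely mmu-miR-199a-3p, mmu-miR-199a-5p, mmu-miR-199b-3p, mmu-miR-199b-5p, mmu-miR-214-3p and mmu-miR-214-5p (the prefix for mouse is left out below). The rows of miR-199a-3p and miR-199b-3p hold identical counts and are counted once below, which leaves 5 distinct members. All 6 rows passed the filter on low counts, as did 457 rows of the whole table. Small RNA was sequenced from whole hearts of male C57Bl6N mice, frozen 1 week after transverse aortic constriction (TAC), an operation that narrows the aorta and loads the left ventricle with pressure. The 5 CITED4 knockout libraries (KO) came from mice labelled as knockouts of CITED4, a transcriptional co-regulator. The 5 control libraries came from mice whose Cited4 gene is flanked by recombination sites. Both groups were operated, so no unoperated heart enters any value. What drives the deletion, the cells it reaches and the age of the animals were not stated in the sources used here. In RNA of a whole heart, fewer cells of a type and less of a miRNA per cell cannot be told apart.

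A miRNA hairpin is cut into a 5p and a 3p arm, and bases 2 to 8 of an arm, the seed, decide most of its pairing with messenger RNAs. miR-199a and miR-214 are cut from one long transcript, Dnm3os, which the mesenchymal transcription factor Twist1 is known to switch on in mouse. In the heart these miRNAs are found mainly in fibroblasts and mural cells, and several have been linked to fibrosis and hypertrophy. miR-199a-3p promotes the division of rodent heart muscle cells, miR-199a-5p represses Hif1a in rat heart muscle cells, miR-199b-5p targets the kinase gene Dyrk1a in mouse heart hypertrophy, and miR-214-3p represses the sodium-calcium exchanger Ncx1 in mouse heart.

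RefSeq lists mature sequences (build GRCm38.p6) for 5 of the 6 members, and these are shown because they explain which rows can be told apart. They are written 5′ to 3′ with the seed in capitals, and miR-199b-5p is named only.
miR-199a-3p: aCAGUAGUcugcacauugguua
miR-199b-3p: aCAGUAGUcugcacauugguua
miR-199a-5p: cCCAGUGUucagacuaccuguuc
miR-214-3p: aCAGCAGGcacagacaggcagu
miR-214-5p: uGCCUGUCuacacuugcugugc
The 3p arms of miR-199a and miR-199b are the same 22 bases, so reads of that sequence have no single origin. The listed members carry 4 different seeds. Of the 1139 miRNAs in the table, 951 matched a RefSeq mature sequence by name, and 0 of these outside the members had one of the 4 seeds.

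The hairpins show where the arms come from and are written 5′ to 3′ with the listed mature arms in capitals.
Mir199a-2: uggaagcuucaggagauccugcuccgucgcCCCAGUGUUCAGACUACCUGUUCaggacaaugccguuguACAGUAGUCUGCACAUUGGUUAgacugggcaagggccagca
Mir214: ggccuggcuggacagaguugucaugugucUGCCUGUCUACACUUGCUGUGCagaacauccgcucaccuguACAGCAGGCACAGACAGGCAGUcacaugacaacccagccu
Mir199a-1: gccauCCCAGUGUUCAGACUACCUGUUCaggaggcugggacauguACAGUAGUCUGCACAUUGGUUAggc
Mir199b: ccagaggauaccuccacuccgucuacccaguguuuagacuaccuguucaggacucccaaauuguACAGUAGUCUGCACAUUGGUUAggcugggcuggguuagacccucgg
Mir199a-2 (chr1:162217814-162217923, plus strand) and Mir214 (chr1:162223368-162223477, plus strand) lie 5444 bases apart. Both overlap an exon of the noncoding RNA gene Dnm3os on the same strand, and an intron of the dynamin gene Dnm3 on the opposite strand, in GENCODE release M21. Mir199a-1 (chr9:21496495-21496564, minus strand) lies opposite to an intron of Dnm2, and Mir199b (chr2:32318460-32318569, plus strand) opposite to an intron of Dnm1. Both arms of miR-199a occur in Mir199a-1 and Mir199a-2, so its counts do not show which locus they came from. The sequence of miR-199a-5p matches the Mir199b hairpin with 1 substitution, C10U, counted from 1 at the 5′ end of miR-199a-5p and with the hairpin's base second. That base lies outside the seed.

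The start of Dnm3os is shown because 4 of the 5 distinct members can be cut from its transcript (chr1:162217373-162217672, plus strand, GRCm38.p6; the 250 bases before the start and the first 50 after it).
Dnm3os promoter: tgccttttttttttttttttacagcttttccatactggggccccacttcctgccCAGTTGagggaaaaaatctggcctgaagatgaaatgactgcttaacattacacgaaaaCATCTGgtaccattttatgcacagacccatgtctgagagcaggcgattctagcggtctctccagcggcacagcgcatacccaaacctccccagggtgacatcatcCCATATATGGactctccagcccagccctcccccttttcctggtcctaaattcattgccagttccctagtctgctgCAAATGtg
Capitals mark matches to 2 motifs that read the same on both strands, chosen with this sequence in view. The E-box CANNTG, the motif of Twist1 and related factors, occurs at positions -196, -138 and 43 from the start, and 72.3% of the 32851 RefSeq promoter windows of this length hold it. The CArG box, the motif of serum response factor, occurs once, at position -33, and 1.63% of the windows hold it. None of these matches overlap.

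The libraries held 8909932 to 18369483 counts in KO hearts and 7526091 to 11608900 counts in control hearts, including identical rows. Levels are given in CPM, counts relative to the library total, scaled by TMM, and each read counts once whatever its length. Ligation of adapters favours some ends over others, so levels of different miRNAs compare reads, not molecules. The lowest count of any member was 152, for miR-214-5p in control replicate 5, which is 15.1 CPM relative to the unscaled total (95% exact Clopper-Pearson interval 12.8 to 17.7, counting error only). The labels do not tie each library to an animal of its own, and the spread behind each p-value may therefore be technical.

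In every one of the 10 libraries the members stood in the same order of level: miR-199a-3p, miR-199a-5p, miR-214-3p, miR-199b-5p and miR-214-5p. miR-199a-3p was the 16th row of the 457 by mean CPM and miR-214-5p the 168th. The ranges of neighbours overlapped for miR-214-3p and miR-199b-5p (88.1 to 287.7 and 53.9 to 124.6 CPM) and for miR-199b-5p and miR-214-5p (18.4 to 92.6 CPM for miR-214-5p). The ranges of miR-199a-3p, miR-199a-5p and miR-214-3p did not overlap each other.

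KO and control hearts were compared for each member. All 5 distinct members had higher means in KO hearts, at 1.15-fold to 1.51-fold of the control level, and none passed the test. The spread within each group was as large as these differences: in all 5 members control replicate 1 was above the KO mean and KO replicate 4 was below the control mean.

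miR-199a-3p, which includes miR-199b-3p, was at 16528, 22930, 15293, 11746 and 22958 CPM in KO replicates 1 to 5, against 21683, 18893, 8721, 10121 and 8771 CPM in control replicates 1 to 5. The highest libraries were KO replicates 5 and 2, and the lowest were control replicates 3 and 5. It averaged 17891 ± 4935 CPM in KO hearts and 13638 ± 6176 CPM in control hearts (SD, n = 5 each), and took 1.89% ± 0.61 and 1.36% ± 0.76 of all counts in the KO and the control libraries. The log2 fold change was 0.39 ± 0.29 (SE), with a 95% interval from -0.23 to 1.02 (edgeR, quasi-likelihood test, adjusted p = 0.64).

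miR-199a-5p, the other arm of the same hairpins, had 964 CPM in KO replicate 1, 1401 in KO replicate 2, 741 in KO replicate 3, 474 in KO replicate 4 and 1049.9 in KO replicate 5, against 1272, 981, 560, 404 and 324 CPM in control replicates 1 to 5. KO replicate 2 was the highest library and control replicate 5 the lowest, and the groups overlapped. Means were 926 ± 347 CPM in KO hearts and 708 ± 404 CPM in control hearts. Its log2 fold change was 0.39 ± 0.37 (95% interval -0.41 to 1.18, adjusted p = 0.67 in edgeR's test).

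By its name, miR-199b-5p is the only member with counts of the Mir199b locus alone. However, miR-199a-5p differs from that hairpin by 1 base, and how reads matching several miRNAs were handled is not stated. Reads of miR-199a-5p in this row can therefore not be excluded. miR-199b-5p was at 94.9, 124.6, 92.1, 74.5 and 101.3 CPM in KO replicates 1 to 5, against 120.05, 80.9, 107.9, 61.6 and 53.9 CPM in control replicates 1 to 5. Control replicate 3, among the lowest 4 libraries for the other members, was the third highest here. Mean levels of 97.5 ± 18.1 CPM in KO hearts and 84.9 ± 28.6 CPM in control hearts gave a log2 fold change of 0.20 ± 0.22 (95% interval -0.29 to 0.68, adjusted p = 0.69 in edgeR's test).

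miR-214-3p, the main arm of Mir214, was at 169, 230.5, 157, 112 and 262 CPM in KO replicates 1 to 5, against 288, 184, 108, 94.7 and 88.1 CPM in control replicates 1 to 5. Control replicate 1 was the highest library of all, while control replicates 3 to 5 lay below every KO library. It averaged 186 ± 60.3 CPM in KO hearts and 153 ± 84.8 CPM in control hearts, with a log2 fold change of 0.28 ± 0.33 (95% interval -0.43 to 1.00, adjusted p = 0.70 in edgeR's test).

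miR-214-5p, the minor arm, was at 74.8, 92.6, 42.6, 30.5 and 70.2 CPM in KO replicates 1 to 5, against 82.6, 56.4, 27.3, 19.9 and 18.4 CPM in control replicates 1 to 5. As for miR-214-3p, control replicates 3 to 5 were below every KO library, and control replicates 1 and 2 were among the KO values. Its means, 62.2 ± 25.2 CPM in KO hearts and 40.9 ± 27.9 CPM in control hearts, differed by 0.60 ± 0.42 on the log2 scale (95% interval -0.31 to 1.51, adjusted p = 0.64 in edgeR's test).

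**Figure D1:**
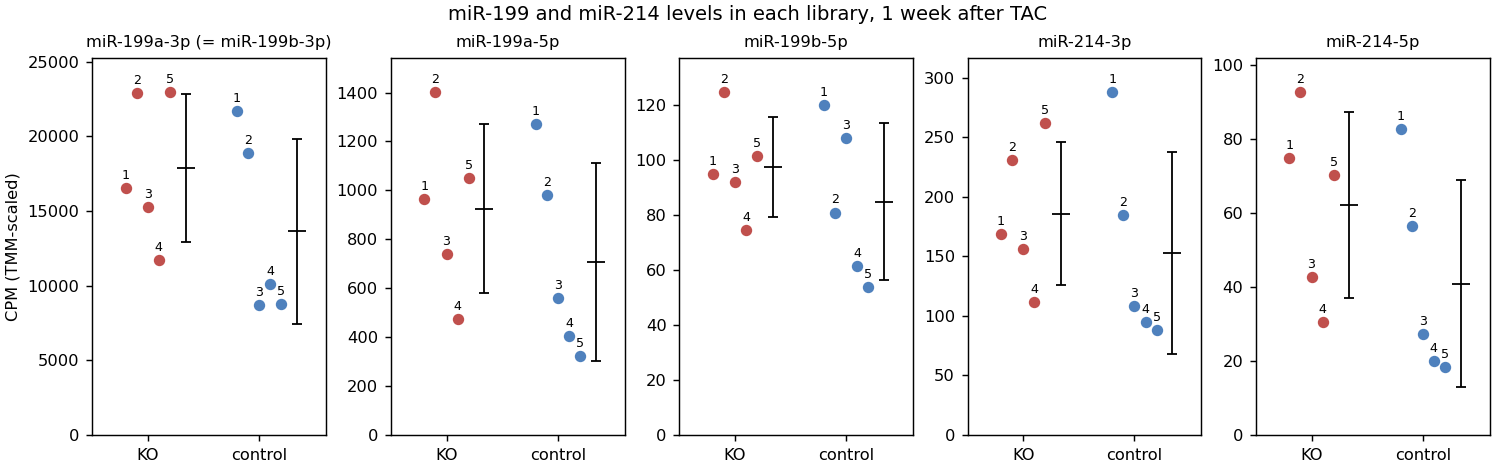
Level of each distinct member in CPM (linear axes from 0) in the 5 KO libraries (red, left) and the 5 control libraries (blue, right). Numbers are replicate numbers, and the bars at the right of each group are the mean ± SD. In each panel the 2 groups overlap, with control replicates 4 and 5 low and control replicate 1 high.

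Of the 457 miRNAs tested, 0 passed an adjusted p of 0.05 (0%), so the 0 of 5 members is the count of the whole table too. At an unadjusted p under 0.05 there were 29 of 457 (6.35%) and again 0 of the 5 members, whose unadjusted p ran from 0.18 to 0.41 in edgeR's fit over all miRNAs. DESeq2 also called 0 of 457, with 36 at an unadjusted p under 0.05, and limma on the deposited normalized values called 0, with 22. A log2 fold change above 0 was found for 5 of 5 members and for 53.2% of all tested miRNAs. The median was 0.39 over the members and 0.03 over all tested miRNAs. In each of the 5 members, 4 of 5 KO libraries were above the control mean, a pattern that 30.9% of all tested miRNAs showed. KO and control values did not overlap for 0 of the 5 members and for 0.656% of all tested miRNAs. The members were measured in the same libraries and 4 of them can come from 1 transcript, so they are not separate replicates of a difference.

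The intervals of the members were wide. Their upper ends ran from a 1.61-fold level for miR-199b-5p to a 2.84-fold level for miR-214-5p in KO hearts, and their lower ends from 0.742 for miR-214-3p to 0.850 for miR-199a-3p. Single libraries moved the log2 fold changes in both directions. Without control replicate 1 they ran from 0.37 for miR-199b-5p to 1.04 for miR-214-5p. In that fit 3 of the 5 had an unadjusted p under 0.05 (edgeR). The smallest was 0.018, and the adjusted p was 0.247 for each of the 3. Over the whole table of that fit, 84 of 466 miRNAs had an unadjusted p under 0.05, against 29 of 457 with every library kept. Without control replicate 5 the members' log2 fold changes ran from 0.08 for miR-199b-5p to 0.42 for miR-214-5p. For the same miRNAs they ran from 0.11 to 0.44 without control replicate 4. Without KO replicate 5 that of miR-214-3p was 0.15, and without KO replicate 2 that of miR-199b-5p was 0.13.

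**Figure D2:**
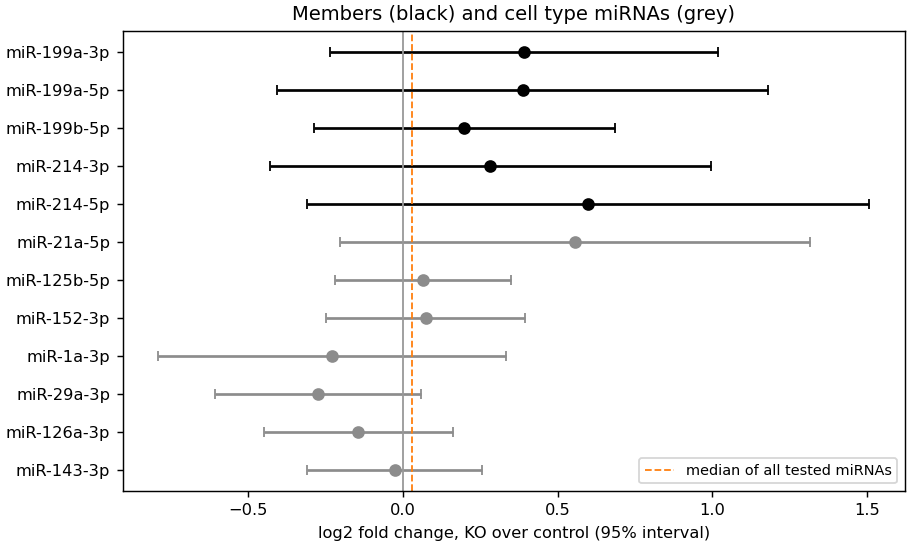
Log2 fold change of KO over control with its 95% interval from edgeR's fit, for the 5 distinct members (black) and for 7 miRNAs of other lists (grey), with the median of all tested miRNAs (0.03) as a dashed line. Every interval shown holds 0, and all 5 members lie to the right of it. Of the other miRNAs named in the text and not shown, miR-29c-3p (-1.11 to -0.013), miR-133a-3p (-0.84 to -0.086) and miR-133b-3p (-1.04 to -0.086) have intervals below 0.

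Levels of the members varied widely from library to library, also within a group. Between the highest and the lowest of the 10 libraries of both groups, miR-214-5p differed 5.03-fold, miR-199a-5p 4.33-fold, miR-214-3p 3.26-fold, miR-199a-3p 2.63-fold and miR-199b-5p 2.31-fold. Within the KO group this ran from 1.67-fold for miR-199b-5p to 3.04-fold for miR-214-5p. Within the control group it ran from 2.23-fold to 4.48-fold for the same miRNAs. In KO hearts the coefficient of variation ran from 18.6% for miR-199b-5p to 40.5% for miR-214-5p, and in control hearts from 33.7% to 68.2% for the same miRNAs. On the log2 scale, the SD within groups was 0.82 for miR-214-5p and 0.40 for miR-199b-5p, against a median of 0.39 over all tested miRNAs. By that SD, miR-214-5p stood at the 92.1st percentile of the tested miRNAs, miR-199a-5p at the 87.3rd and miR-199b-5p at the 51.2nd.

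The members varied together across libraries. Among the 6 pairs without miR-199b-5p, Pearson's r of log2 CPM over the 10 libraries ran from 0.94 to 0.98. For the 4 pairs with miR-199b-5p it ran from 0.67 to 0.85. The 2 arms of Mir214 had an r of 0.94, as had miR-199a-3p with miR-199a-5p, and miR-199a-5p with miR-214-5p had the highest r of all pairs, 0.98. After the group means were subtracted these ranges were 0.93 to 0.99 and 0.62 to 0.84. All CPM values share the library totals, and the pairs share loci and libraries.

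Relations of 6 miRNAs with miR-199a-3p were tested over the 10 libraries by permutation of Pearson's r (two-sided, 100000 resamples, adjusted over the 6). The 6 come from the members and from lists given below, all chosen with earlier results of these data known. Their p-values are therefore not independent support. miR-214-3p followed it with r = 0.96 and rho = 0.93 (permutation p = 5e-05, adjusted p = 0.00015; for rho, p = 0.00034, adjusted p = 0.001). miR-214-5p had r = 0.94 and rho = 0.87 (permutation p = 0.00022, adjusted p = 0.00033; for rho, p = 0.002, adjusted p = 0.003). For miR-199a-5p these were r = 0.94 and rho = 0.89 (permutation p = 0.00017, adjusted p = 0.00033; for rho, p = 0.0013, adjusted p = 0.0026). These relations had r of 0.97, 0.94 and 0.97 without the 2 libraries farthest from the median, control replicates 3 and 5.

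miR-199b-5p was less close to miR-199a-3p, with r = 0.67 and rho = 0.56 (permutation p = 0.038, adjusted p = 0.045; for rho, p = 0.096, adjusted p = 0.11). It rests on single libraries: r was 0.89 without control replicates 3 and 5, 0.93 without control replicate 3 alone and 0.71 without control replicate 2, and it lay between 0.54 and 0.67, no longer passing, without any 1 of the other 8 libraries. miR-21a-5p, a miRNA known to rise in cardiac fibroblasts under pressure load, followed miR-199a-3p with r = 0.98 and rho = 0.96 (permutation p = 2e-05, adjusted p = 0.00012; for rho, p = 0.00011, adjusted p = 0.00066), and r was 0.96 without the same 2 libraries. The heart muscle miRNA miR-1a-3p ran the other way without passing, at r = -0.54 and rho = -0.52 (permutation p = 0.11, adjusted p = 0.11; for rho, p = 0.13, adjusted p = 0.13). Without control replicate 3 its r was -0.81 (exact permutation p = 0.010, adjusted p = 0.010), and without control replicates 3 and 5 it was -0.76.

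By Pearson's r with the mean log2 CPM of the 5 members over 10 libraries, the most similar of 444 other miRNAs were miR-434-5p (0.97), miR-673-5p (0.97), miR-34c-5p (0.96), miR-455-5p (0.96) and miR-21a-5p (0.96). These values describe the ranking and carry no test. In 23 of the 444 r was above 0.9, against a median of 0.02. miR-434-5p ranged from 21.2 to 60.4 CPM in KO hearts and from 17.3 to 53.0 CPM in control hearts. miR-34c-5p, of a family known as targets of p53, ranged from 84.5 to 314 CPM in KO hearts and from 52.2 to 263 CPM in control hearts. Those that ran most against the members were miR-30a-3p (-0.96), miR-149-5p (-0.94) and miR-30c-2-3p (-0.94). miR-30a-3p, the minor arm of a hairpin whose miR-30 family is abundant in heart muscle, ranged from 1324 to 1933 CPM in KO hearts and from 1353 to 2554 CPM in control hearts.

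**Figure D3:**
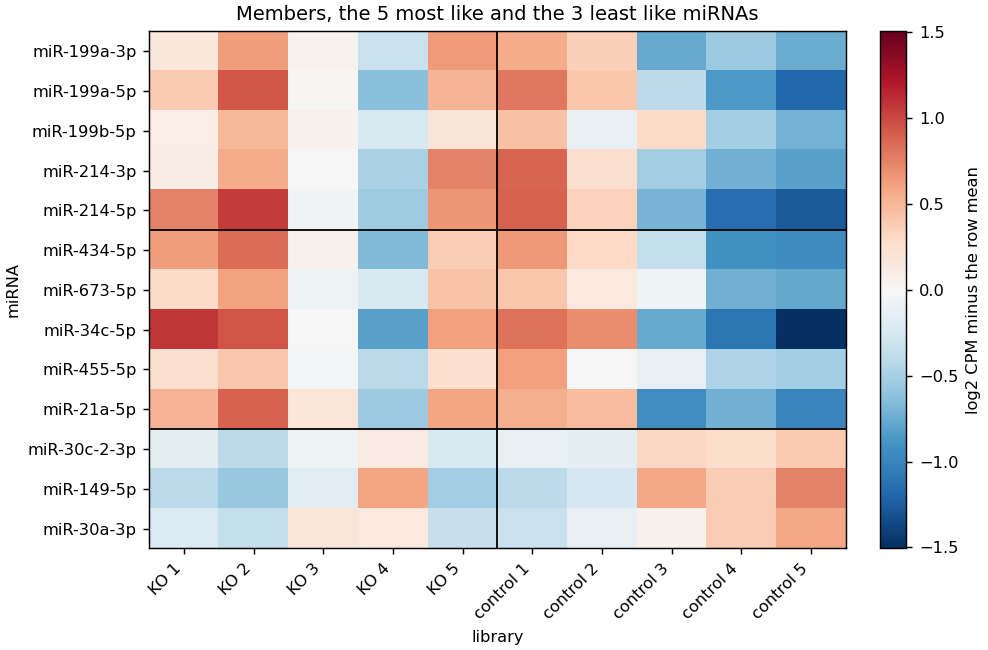
Log2 CPM minus the mean over the 10 libraries (colour) for the 5 distinct members (top), the 5 most similar miRNAs (middle) and the 3 least similar (bottom), with KO libraries at the left and control libraries at the right. Control replicates 4 and 5 are below the mean for every member and control replicate 1 above it; control replicate 3 is below it for 4 members and above it, by 0.29, for miR-199b-5p.

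Ratios between members within a library do not depend on how libraries are scaled. For each miR-199a-5p read there were 20.2 ± 3.47 reads of miR-199a-3p in KO hearts and 20.8 ± 5.04 in control hearts (SD, n = 5 each), the 3p row including miR-199b-3p. The log2 ratio of 5p to 3p differed by 0.03 between KO and control (exact two-sided permutation test, p = 0.89, adjusted over 4 ratios 0.89), and this sign turned without KO replicate 1 or 2 or control replicate 4 or 5.

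The ratio of miR-214-5p to miR-214-3p was 0.444, 0.402, 0.272, 0.273 and 0.268 in KO replicates 1 to 5, against 0.287, 0.306, 0.252, 0.210 and 0.209 in control replicates 1 to 5. KO replicates 1 and 2 were the highest, and the other 3 KO libraries lay among the controls. Means were 0.332 ± 0.084 in KO hearts and 0.253 ± 0.044 in control hearts. The log2 ratio was 0.37 higher in KO hearts, with all 5 KO libraries above the control mean, and did not pass (exact two-sided permutation test, p = 0.11, adjusted p = 0.44).

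miR-199b-5p was less abundant than its relative miR-199a-5p in all 10 libraries. Its ratio to miR-199a-5p was 0.0984, 0.0889, 0.124, 0.157 and 0.0965 in KO replicates 1 to 5, against 0.0944, 0.0825, 0.193, 0.153 and 0.167 in control replicates 1 to 5. The ratio was highest in control replicates 3 and 5 and KO replicate 4, all libraries with low miR-199a-5p. It made up 10.1% ± 2.23 of the summed miR-199a-5p and miR-199b-5p reads in KO hearts and 12.0% ± 3.70 in control hearts. The log2 ratio in KO minus that in control was -0.24 (exact two-sided permutation test, p = 0.40, adjusted p = 0.62). The ratio of miR-214-3p to miR-199a-5p averaged 0.207 ± 0.037 in KO hearts and 0.223 ± 0.034 in control hearts, a log2 difference of -0.11 (exact two-sided permutation test, p = 0.47, adjusted p = 0.62). With 5 libraries against 5, the smallest p of this test is 0.0079.

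**Figure D4:**
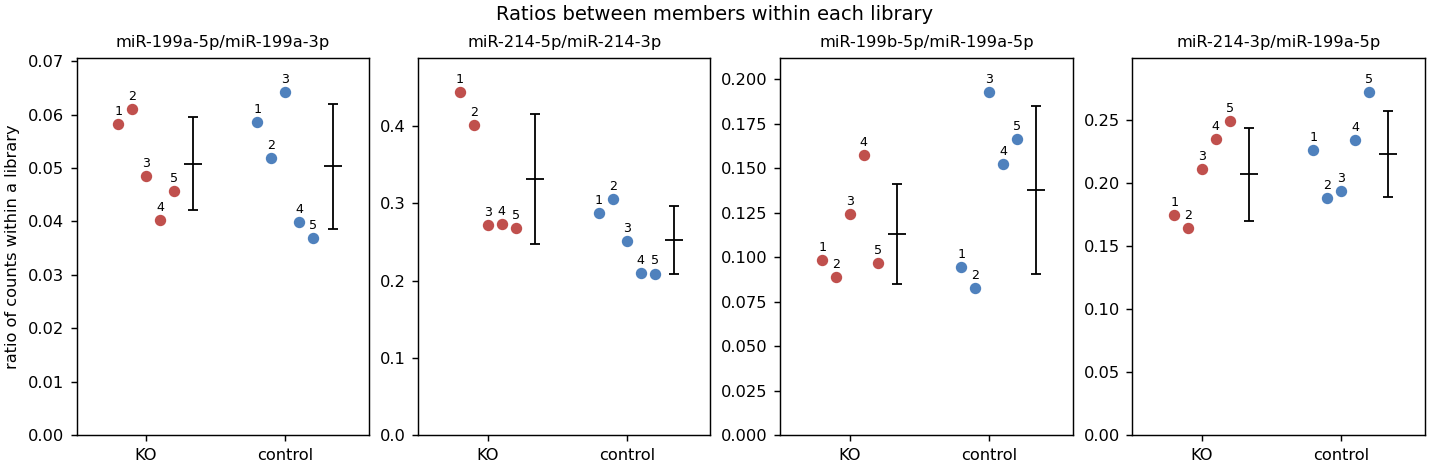
Ratio of counts between members within each of the 5 KO (red, left) and 5 control (blue, right) libraries, on linear axes from 0, with replicate numbers and the mean ± SD at the right of each group. The miR-214-5p to miR-214-3p ratio is highest in KO replicates 1 and 2 (0.444 and 0.402), and the groups overlap in all 4 panels.

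Other miRNAs linked to fibroblasts were read beside the members. These and the lists below were chosen with earlier results of these data known, so their directions are not independent support. All 8 listed had higher means in KO hearts, where 53.2% of all tested miRNAs had a log2 fold change above 0. The median log2 fold change was 0.10 against 0.03 for all tested miRNAs, and 0 of the 8 passed in edgeR's test. At an unadjusted p under 0.05 there was 1 of 8, against 6.35% of all tested miRNAs. miR-21a-5p was at 77287 ± 25544 CPM in KO hearts and 52572 ± 28415 CPM in control hearts. miR-125b-5p, at 6263 ± 486 CPM in KO hearts and 5991 ± 789 CPM in control hearts, and miR-152-3p, at 3004 ± 494 and 2855 ± 401 CPM in KO and control, varied far less. The summed level of the 8 was 50964 to 121556 CPM in KO hearts and 39601 to 98211 CPM in control hearts, most of it miR-21a-5p.

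miRNAs known to restrain fibrosis had lower means in KO hearts in 6 of 6 cases, with a median log2 fold change of -0.42. Of all tested miRNAs, 53.2% had a log2 fold change above 0. This list too was chosen with earlier results known, and 0 of the 6 passed in edgeR's test. At an unadjusted p under 0.05 there were 2 of 6, miR-29c-3p and miR-133a-3p, against 6.35% of all tested miRNAs. miR-29a-3p, which targets collagen transcripts, was at 11706 ± 1451 CPM in KO hearts and 14152 ± 2356 CPM in control hearts. miR-30c-5p was at 6397 ± 1746 and 8264 ± 1970 CPM in KO and control, and miR-29c-3p at 2154 ± 583 and 3173 ± 1138 CPM.

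Markers of other heart cells were present in all libraries, and 0 of their members passed. Heart muscle miRNAs had lower means in KO for 5 of 6 (miR-133a-3p is also in the list above), with a median log2 fold change of -0.40. Before adjustment, edgeR's p was under 0.05 for 2 of the 6, miR-133a-3p and miR-133b-3p, against 6.35% of all tested miRNAs. The heart muscle miRNAs summed to 220847 to 387114 CPM in KO hearts and 242925 to 504570 CPM in control hearts. In CPM these sums and the members share the library totals. Control replicates 4 and 5, lowest in miR-199a-5p, had the highest muscle sums, 504570 and 471274 CPM. Control replicate 3, the lowest library for miR-199a-3p and the 7th highest for miR-199a-5p, had a muscle sum of 249390 CPM. Most of this sum was miR-1a-3p, at 299919 ± 77136 CPM in KO hearts and 351241 ± 122216 CPM in control hearts, with miR-499-5p at 2376 ± 837 and 3003 ± 1141 CPM and miR-133a-3p at 1177 ± 211 and 1620 ± 340 CPM in KO and control.

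Both endothelial miRNAs had lower means in KO, with miR-126a-3p at 20703 ± 2610 CPM in KO hearts and 22874 ± 2497 CPM in control hearts and a summed range of 25223 to 34443 CPM in KO and 26219.8 to 35318 CPM in control. Smooth muscle and pericyte miRNAs had higher means in 2 and lower means in 2 of 4 (3 and 1 with library totals only), and summed to 26431 to 33161 CPM in KO and 28045 to 33846 CPM in control. Their main member miR-143-3p was at 30307 ± 2671 CPM in KO hearts and 30858 ± 2262 CPM in control hearts, and its sign turned with library totals only. Leukocyte miRNAs had higher means in KO in 2 of 6 (3 of 6 with library totals only) and summed to 1915 to 2036 CPM in KO and 1938 to 2194 CPM in control, with miR-155-5p, miR-146a-5p and miR-223-3p at 566 ± 61.2, 404 ± 131 and 398 ± 119 CPM in KO hearts and 594 ± 79.8, 513 ± 105 and 344 ± 40.7 CPM in control hearts. The 3 tested erythroid miRNAs had lower means in KO (median log2 fold change -0.49) and summed to 11532 to 25239.7 CPM in KO and 13759 to 33016 CPM in control, with miR-486a-5p at 16713 ± 5244 and 23545 ± 7516 CPM. The part of any of these cell types in the levels of miR-199 and miR-214 was not tested.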

How the data were processed

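Small RNA libraries, 5 from CITED4 knockout and 5 from floxed control hearts, were made with a NEXTflex kit from frozen tissue, per the labels' protocols. The authors deposited raw read counts per mature miRNA. The second deposited table is a normalized signal: each value is the count divided by 1 factor per library (relative tolerance 1e-09), equal to the DESeq2 size factor computed here. Tools listed in the submitters' processing notes are cutadapt 1.10, Bowtie, STAR and DESeq2, with GRCm38 as the build and no role for any of them. Neither the annotation release nor the handling of reads matching several miRNAs is stated there.

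Counts were filtered with filterByExpr, scaled with TMM and tested with edgeR 4.0.16 (R 4.3.3, limma 3.58.1, DESeq2 1.42.0) by the quasi-likelihood test; the model held only genotype, and p-values were adjusted after Benjamini and Hochberg over all 457 miRNAs (threshold 0.05). SE is the log2 fold change over the square root of F. Log2 CPM and log2 ratios used a prior count of 2; ratios on the linear scale are of plain counts. The fit was tested on simulated data. Alternatives covered scaling, filters, tools, identical rows, a replicate block and each library left out. Named miRNAs are the members, the 3 most abundant of each list, and those most and least like the members. Outside this rule, miR-133b-3p is named for its unadjusted p in edgeR's test. Members and lists were chosen with earlier results of these data known. One listed erythroid miRNA, miR-451a, has no row under that name in the deposited counts, so the erythroid sums do not include it. Any 2 libraries of a group differed by more than sampling noise (the lowest chi-square per degree of freedom was 210 in KO and 108 in control).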

Additional observations from a re-analysis of the deposited data

How the results depend on the processing

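The count of 0 miRNAs past the threshold was the same in all 18 alternative fits, and the 5 members had a higher mean in KO hearts in each of them. Log2 fold changes of single members ran from 0.08 to 1.04 when single libraries were left out. Without TMM factors (library totals only) the median of all tested miRNAs was 0.14, against 0.03 with them (log2). The count at an unadjusted p under 0.05 was 29 of 457, and became 14 of 457 with library totals only, 16 of 282 with the stricter filter, 102 of 1105 without a filter, and 6 to 84 with 1 library left out. With the replicate block it was 72 of 457, and miR-214-5p had a log2 fold change of 0.74 (unadjusted p = 0.010, adjusted p = 0.18 in edgeR's test). The labels do not say whether replicate numbers mark pairs, and the numbers were not taken as pairs. Deviations of same-number libraries correlated above 0.1 in 3 of 5 pairs. The values were 0.45, 0.38 and 0.40 for replicates 1, 2 and 4, and -0.08 and -0.12 for replicates 3 and 5. For 4 of the 10 libraries the best match was the one with the same number. Whether same-number libraries share a batch was not tested. The 4 ratios did not pass in any setting. The block leaves their mean differences unchanged by construction, so their direction under it is no check. With the block, miR-214-5p to miR-214-3p, at 0.37, had an exact sign-flip p of 0.062, the smallest that 5 pairs allow. With 1 library left out, the log2 difference of miR-199a-5p to miR-199a-3p ran from -0.074 to 0.125, with -0.025 and -0.042 without KO replicate 1 or 2 and -0.046 and -0.074 without control replicate 4 or 5. The correlation of miR-199b-5p with miR-199a-3p was 0.62 after subtracting group means, no longer past the threshold (permutation p = 0.062, adjusted p = 0.075), and 0.54 to 0.93 with 1 library left out. That of miR-1a-3p was -0.81 to -0.42 with 1 library left out. For these changes the cause was not tested. The lowest count of a member was 152, and the median half-width of the members' 95% intervals was 0.71 (log2).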
